A study of Mus musculus with 136 samples.

Results

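Tnfsf4 and Tnfsf9 encode paired costimulatory ligands of the tumour necrosis factor (TNF) superfamily, and they were followed here through 136 RNA libraries of mouse bone marrow-derived macrophages. They are 2 of the 15196 genes in the deposited table. They were picked by symbol because loss of Nfkbiz, the gene for the nuclear NF-kB cofactor IkBz, went with a higher Tnfsf4 level and a lower Tnfsf9 level. That contrast is therefore described below without a test, and the tests concern the other knockouts, the stimuli and the time courses.

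Tnfsf4 encodes OX40 ligand, the membrane ligand of the T-cell receptor OX40 (Tnfrsf4), and Tnfsf9 encodes the ligand of 4-1BB (Tnfrsf9). Antigen-presenting cells, macrophages among them, display these ligands after activation and through them sustain the proliferation and survival of T cells that have met antigen. NF-kB, a family of dimeric transcription factors, is activated when Toll-like receptors sense microbial products such as lipid A, the active part of bacterial endotoxin, or when the cytokine TNFa binds its receptors.

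The macrophages were grown from bone marrow for 6 days in M-CSF. In 4 series, Nfkb1-/-, Nfkbiz-/-, Bcl3-/- or Nfkbid-/- macrophages were each set beside wild-type C57 macrophages at 0, 0.5, 1, 2 and 6 h of lipid A, with 3 libraries per genotype and time in the Nfkb1 and Nfkbid series and 2 in the Nfkbiz and Bcl3 series. Nfkb1 encodes an NF-kB subunit, and Nfkbiz, Bcl3 and Nfkbid encode nuclear IkB proteins. In further chromatin RNA series, wild-type macrophages were treated with an ERK inhibitor (ERKi) or with its solvent DMSO and sampled at 0, 15, 30 and 60 min of lipid A, or were sampled at 0, 0.5, 1, 2 and 6 h of TNFa, with 1 library each. The polyA RNA libraries cover wild-type macrophages at 0 h and at 0.5, 1, 2 and 6 h of lipid A or TNFa (1 library each). They also cover cells labelled J2 of genotype Nfkb1-/- Nfkb2-/- (2 libraries per time), Nfkb1-/- or wild type (1 each) at 0 and 2 h of lipid A, and cells labelled as overexpressing IkBz or as control at 0 h, 2 h of TNFa and 2 h of lipid A (1 each). How the J2 cells were made and how IkBz was expressed are not given in the sources used here. The labels do not say that replicates came from separate mice, so p-values measure only the spread between these samples, which may be technical.

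Chromatin RNA, the RNA still attached to chromatin, follows ongoing transcription more closely than the stored message pool that polyA RNA reports. The level is given as RPKM, a read count scaled to gene length and to library size. In the chromatin libraries the length is that of the whole gene, introns included, and in the polyA libraries that of the exons, so levels are compared within a kind of library only. The chromatin libraries held 7860000 to 45300000 reads (to 3 digits) as recovered from the steps between low values. Tnfsf9 had 9 to 67195 reads in them and Tnfsf4 1 to 5207, with at least 100 reads in 99 and 54 of the 113 libraries. A value worth 1 read can also stand for none, since the table holds no zeros.

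The labels could not be checked against the targeted genes. The mean Nfkb1 level in libraries labelled Nfkb1-/- was 1.94 to 15.1 RPKM over the time points, against 1.96 to 16.6 RPKM in wild type. The mean Bcl3 level was 8.84 to 35.2 RPKM in libraries labelled Bcl3-/-, against 2.43 to 17.2 RPKM in wild type. At every time both Bcl3-/- libraries lay above both wild-type libraries (means 8.84 and 2.43 RPKM at 0 h, 35.2 and 9.07 RPKM at 6 h). A signal over the whole gene need not fall with a deleted part, and the cause of the higher Bcl3 level was not tested. Genotypes below are therefore those of the labels. The 3 macrophage markers in the table (Csf1r, Lyz2 and Mertk) all reached 1 RPKM, whereas none of the T-cell, B-cell, dendritic, endothelial or mast-cell markers did in any of the 100 libraries of the 4 knockout series. Replicate 1 of the Nfkbid series stood apart in both genotypes: Malat1, a nuclear-retained RNA, lay at 6.92 to 19.4 RPKM in its 10 libraries, against 823 to 1640 RPKM in replicates 2 and 3. Neutrophil and precursor markers reached 1 RPKM only in the Nfkbid series (up to 5 of the 6 in the table), as did stromal markers (up to 2 of 2). Results that rest on that replicate are given with and without it.

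In the mm9 assembly Tnfsf4 (NM_009452) lies on the forward strand of chromosome 1 at chr1:163325568-163348337 and spans 22770 bases with 3 exons. Tnfsf9 (NM_009404) lies on the forward strand of chromosome 17 at chr17:57244807-57247180 and spans 2374 bases, also with 3 exons. The long noncoding gene Gm11110, annotated on the opposite strand, covers the first 559 bases of Tnfsf9. Whether reads were counted by strand is not given in the sources used here, so reads from the shared stretch cannot be told apart. From 0 to 6 h the wild-type mean of Gm11110 was 1.00, 1.46, 0.834, 0.433 and 0.658 RPKM in the Nfkb1 series, 1.67, 7.62, 4.42, 1.33 and 2.01 RPKM in the Nfkbiz series, 1.61, 6.79, 3.17, 1.17 and 1.93 RPKM in the Bcl3 series and 1.52, 24.3, 20.1, 4.32 and 2.58 RPKM in the Nfkbid series. It was highest at 0.5 h in each, as Tnfsf9 was, and reached 56.3 RPKM in a single library; its part in the Tnfsf9 values was not tested.

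In wild-type macrophages Tnfsf9 was the earlier and stronger of the pair. Over the 8 wild-type libraries of the Nfkb1, Bcl3 and Nfkbid series (the wild type of the Nfkbiz series was left out of the test because it belongs to the contrast that chose the genes), Tnfsf9 had 0.429, 2.04 and 7.98 RPKM (lowest, median, highest) at 0 h and 70.0, 111 and 677 RPKM at 0.5 h. The corresponding values were 24.2, 54.5 and 648 RPKM at 1 h, 9.97, 13.4 and 121 RPKM at 2 h, and 4.23, 10.5 and 51.0 RPKM at 6 h. Every library at 0.5, 1 and 2 h lay above every library at 0 h, and the 0 h and 6 h ranges overlapped through the Nfkbid replicate 1 value at 0 h. Without Nfkbid replicate 1 the highest values were 151 RPKM at 0.5 h, 97.2 RPKM at 1 h, 17.8 RPKM at 2 h and 13.1 RPKM at 6 h.

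Tnfsf9 rose by 5.83 ± 0.52 on the log2(RPKM + 0.5) scale at 0.5 h against 0 h (limma, Benjamini-Hochberg adjusted p = 6.7e-11, SE after the sign). In such bulk samples fewer cells making a transcript and less transcript per cell cannot be told apart. That was the rank 4 change among 5812 genes tested. It was also called higher at 1 h (4.80), 2 h (2.87) and 6 h (2.26, limma adjusted p = 0.000468). The median of all genes tested lay at -0.47 to -0.35 at these times against 0 h, on the same scale. A gene is called where the limma adjusted p is under 0.05 and the change is at least 2-fold on this scale, and of all genes tested 4.4% were called higher after 0.5 h, 4.99% after 1 h, 7.67% after 2 h and 6.99% after 6 h. Between neighbouring times, the step from 1 to 2 h was called (-1.93, limma adjusted p = 0.00564; 3.53% of genes were called lower at that step), and the steps from 0.5 to 1 h (-1.03, adjusted p = 0.206) and from 2 to 6 h (-0.62, adjusted p = 0.603) were not, beside 1.89% and 1.79% of genes called lower there. The 1 to 2 h call was lost without the Nfkb1 series or without the Bcl3 series, and the 0.5 to 1 h step was called with the replicate number as a block (-1.03, adjusted p = 0.000674) and without Nfkbid replicate 1 (-1.17, adjusted p = 0.00215).

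Tnfsf4 followed later and at far lower levels. Its lowest, median and highest levels in the same 8 libraries were 0.00577, 0.0172 and 0.105 RPKM at 0 h, 0.0173, 0.188 and 0.702 RPKM at 0.5 h, and 0.313, 1.01 and 2.73 RPKM at 1 h. At 2 h they were 0.228, 0.525 and 1.20 RPKM, and at 6 h 0.0380, 0.0678 and 0.475 RPKM. Every library at 1 and 2 h lay above every library at 0 h, and the ranges at 0 and 6 h overlapped. Tnfsf4 rose at 1 h (1.63 on the log2(RPKM + 0.5) scale, limma adjusted p = 1.37e-07, rank 165 of the genes tested) and at 2 h (1.03, adjusted p = 0.000166). It was not called at 0.5 h (0.50, limma adjusted p = 0.059) or at 6 h (0.21, adjusted p = 0.466). Tnfsf4 reached 1 RPKM only at 1 and 2 h, so it entered this fit through the times at which it was high. The 1 h call held in all 10 other settings, a fit of all genes without a filter on low values among them.

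The step of Tnfsf4 from 0.5 to 1 h was called (1.12, limma adjusted p = 0.000389), as it was for 2.13% of genes in that direction. The added 0.5 RPKM holds these estimates down for a gene that starts near 0. The 2 h call was lost without Nfkbid replicate 1 (0.94) and without the whole Nfkbid series (0.90), each just short of 2-fold, and at 0.5 h Tnfsf4 was called once libraries were centred on their median (1.05).

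The time of the highest level was then read in single courses, each formed by the libraries of 1 genotype and replicate number. Tnfsf9 was highest at 0.5 h in all 10 wild-type courses of the 4 series and in all 10 knockout courses. Tnfsf4 was highest at 1 h in 9 of the 10 wild-type courses, and at 2 h in Nfkbid replicate 1. Of the 10 knockout courses, Tnfsf4 was highest at 1 h in 5, at 2 h in 3 and at 6 h in 2, the last being those of Nfkbiz-/-. Over the 40 group means of the 4 series (2 genotypes at 5 times), centred per series, the levels of the 2 ligands correlated with r = 0.267, a value that describes points sharing libraries and time courses.

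**Figure D1:**
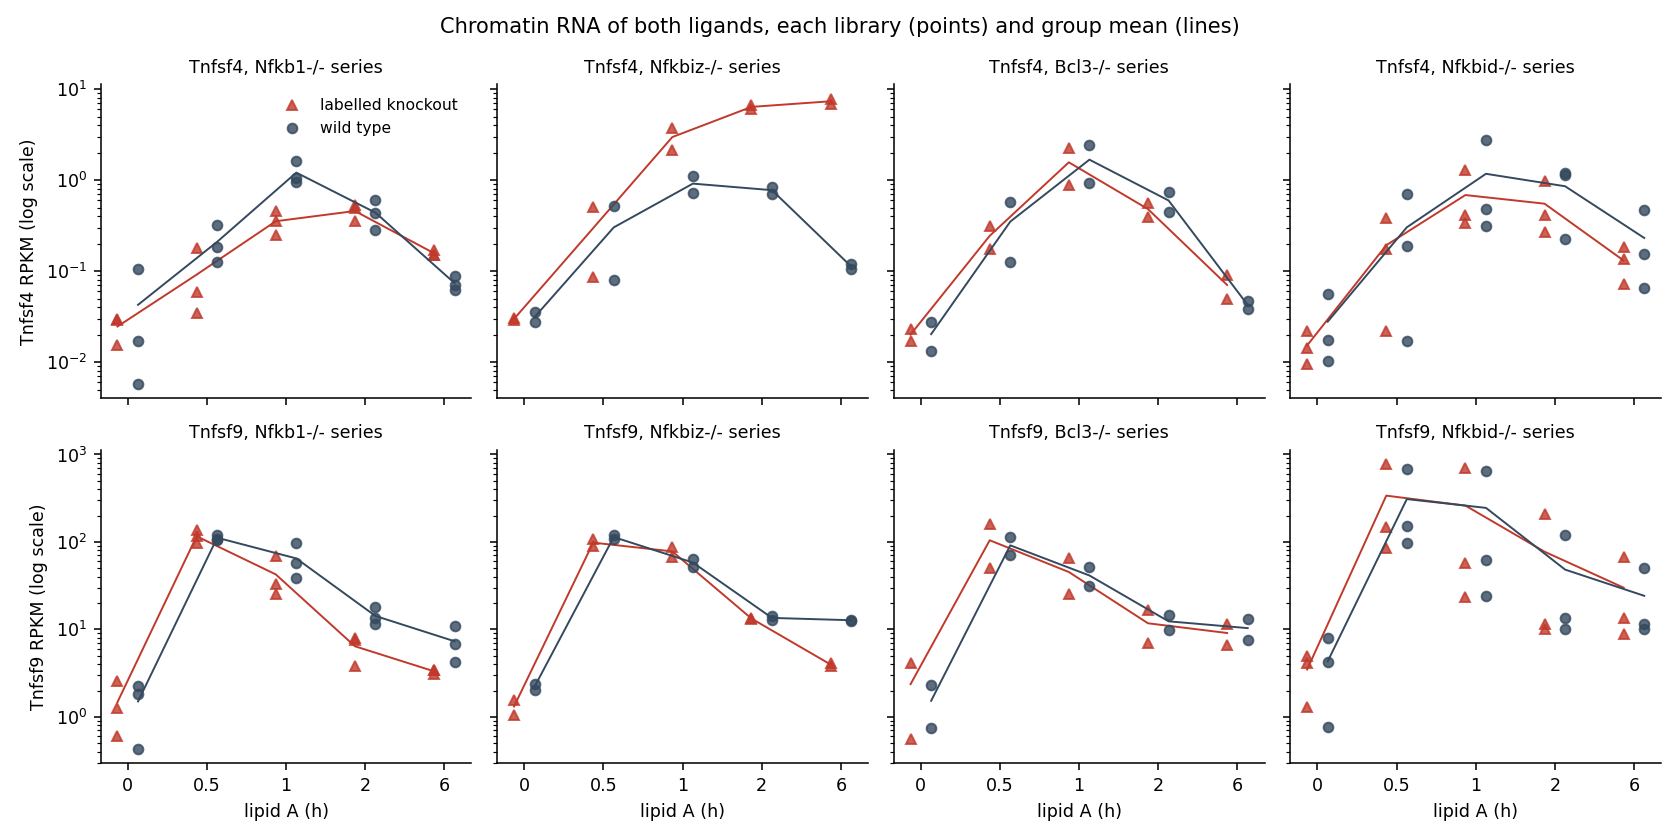
RPKM of Tnfsf4 and Tnfsf9 in chromatin RNA (log axis) against hours of lipid A in the 4 knockout series; each triangle is 1 knockout library and each circle 1 wild-type library. In the Nfkbiz series Tnfsf4 stood at 6.88 and 7.86 RPKM in knockout at 6 h, against 0.119 and 0.107 RPKM in wild type.

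The Nfkbiz contrast, which chose the genes, is given as a description. Tnfsf4 had 3.78 and 2.17 RPKM in Nfkbiz-/- macrophages at 1 h, against 1.12 and 0.716 RPKM in wild type. At 2 h it had 6.08 and 6.70 RPKM in Nfkbiz-/- and 0.845 and 0.708 RPKM in wild type, and at 6 h 6.88 and 7.86 RPKM in Nfkbiz-/- and 0.119 and 0.107 RPKM in wild type. The knockout libraries were above both wild-type libraries at these 3 times, as for 13%, 16.9% and 14.8% of genes tested, and the ratio of the means widened with time: 3.25 at 1 h, 8.23 at 2 h and 65.3 at 6 h. At 0 h (0.0304 and 0.0294 RPKM in Nfkbiz-/-, 0.0353 and 0.0274 RPKM in wild type) and at 0.5 h (0.507 and 0.0871 RPKM in Nfkbiz-/-, 0.525 and 0.0803 RPKM in wild type) the genotypes overlapped.

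The shape of the Tnfsf4 course differed as well as its height. Its level at 6 h was 182% and 362% of that at 1 h in the Nfkbiz-/- courses, against 10.6% and 14.9% in wild type. Both Nfkbiz-/- courses were highest at 6 h and both wild-type courses at 1 h. Of the 4885 genes tested in that series, 2.01% were called higher and 4.26% lower in Nfkbiz-/- at some stimulated time (98 and 208 genes; 175 and 125 with libraries centred on their median, since the median of all genes lay at -0.24 at 6 h).

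In the Nfkbiz series the widest gap in Tnfsf9 came at 6 h. It had 89.5 and 107 RPKM in Nfkbiz-/- macrophages at 0.5 h against 119 and 109 RPKM in wild type, 68.0 and 87.8 RPKM against 64.2 and 52.0 RPKM at 1 h, and 13.2 and 13.5 RPKM against 14.1 and 12.9 RPKM at 2 h. At 6 h it had 4.14 and 3.80 RPKM in Nfkbiz-/- and 12.9 and 12.6 RPKM in wild type, a 3.21-fold lower mean in the knockout; both knockout libraries lay under both wild-type libraries, as for 52.4% of genes in that series at 6 h. Wild type held nearly the same level at 2 and 6 h, while the knockout went on down. At 0 h Tnfsf9 had 1.05 and 1.58 RPKM in Nfkbiz-/- and 2.39 and 2.04 RPKM in wild type.

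In the Nfkb1 series Tnfsf4 was lower without Nfkb1 at 1 h, the time of the wild-type maximum. It had 0.353, 0.457 and 0.251 RPKM in Nfkb1-/- macrophages, against 1.61, 0.961 and 1.06 RPKM in wild type. Each knockout library lay under each wild-type library. That held in this direction for 3.63% of the 4523 genes passing the filter on low values, which Tnfsf4 did not pass. The mean was 0.354 ± 0.103 RPKM in Nfkb1-/- and 1.21 ± 0.352 RPKM in wild type (SD, n = 3 each), 3.42-fold lower in the knockout. Tnfsf4 reached 1 RPKM in fewer than 3 libraries of this series and so failed the filter on low values, and its test comes from the fit without that filter, over 15196 genes. It gave -0.99 ± 0.15 on the log2(RPKM + 0.5) scale (limma adjusted p = 0.00138), just short of the 2-fold needed for a call; 0.171% of genes were called lower in that fit and 0.597% in the fit with the filter. Over 14 other settings the estimate ran from -1.52 to -0.70, the adjusted p from 0.000161 to 1.00, and 6 settings made the call; fitted at each time alone the adjusted p was 1.00.

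At 2 h the genotypes overlapped in Tnfsf4, with 0.352, 0.490 and 0.533 RPKM in Nfkb1-/- at 2 h and 0.602, 0.282 and 0.435 RPKM in wild type. At 6 h the order was turned round, with 0.151, 0.172 and 0.150 RPKM in Nfkb1-/- and 0.0892, 0.0621 and 0.0701 RPKM in wild type. These did not overlap, which held in that direction for 7.47% of the genes passing the filter on low values, Tnfsf4 not among them. The difference of 0.20 ± 0.15 on the log2(RPKM + 0.5) scale was not called (limma adjusted p = 1.00). The 6 h level was 42.6%, 37.7% and 59.7% of the 1 h level in the Nfkb1-/- courses, and 5.53%, 6.46% and 6.62% in the wild-type courses. Of the Nfkb1-/- courses, 1 was highest at 1 h and 2 were highest at 2 h. At 0.5 h Tnfsf4 had 0.181, 0.0587 and 0.0351 RPKM in Nfkb1-/- and 0.321, 0.184 and 0.126 RPKM in wild type, which overlapped. The difference of -0.26 ± 0.15 on the log2(RPKM + 0.5) scale was not called by limma. Each same-numbered pair was lower in the knockout, but the labels do not say that such libraries were paired. How many of all genes share that pattern was not counted. At 0 h both genotypes were under 0.11 RPKM.

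Tnfsf9 overlapped between the genotypes of the Nfkb1 series at 0.5 and 1 h and lay lower in the knockout from 2 h. At 0.5 h it had 96.5, 116 and 136 RPKM in Nfkb1-/- and 120, 106 and 109 RPKM in wild type, and at 1 h 33.1, 25.2 and 69.4 RPKM in Nfkb1-/- and 57.9, 39.2 and 97.2 RPKM in wild type. The 1 h difference of -0.64 ± 0.46 on the log2(RPKM + 0.5) scale was not called by limma. Each same-numbered pair at 1 h was lower in the knockout, a pattern whose share over all genes was not counted. At 2 h it had 3.81, 7.95 and 7.50 RPKM in Nfkb1-/- and 11.5, 13.4 and 17.8 RPKM in wild type, and at 6 h 3.13, 3.40 and 3.42 RPKM in Nfkb1-/- and 4.23, 6.86 and 10.9 RPKM in wild type.

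The Tnfsf9 values did not overlap at 2 h or at 6 h, which held in that direction for 5.77% and 4.05% of the genes tested, and the means were 2.22-fold and 2.20-fold lower in Nfkb1-/-. The differences on the log2(RPKM + 0.5) scale were -1.13 ± 0.46 at 2 h and -0.94 ± 0.46 at 6 h, and limma called neither (adjusted p = 1.00 at both times); 0.376% of genes were called lower at 2 h and 0.221% at 6 h. With the replicate number as a block at each time the 2 h difference was called (adjusted p = 0.0114, over a range of 0.0114 to 1.00 in 16 other settings). At 6 h that block gave an adjusted p of 0.0252, still short of 2-fold.

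**Figure D2:**
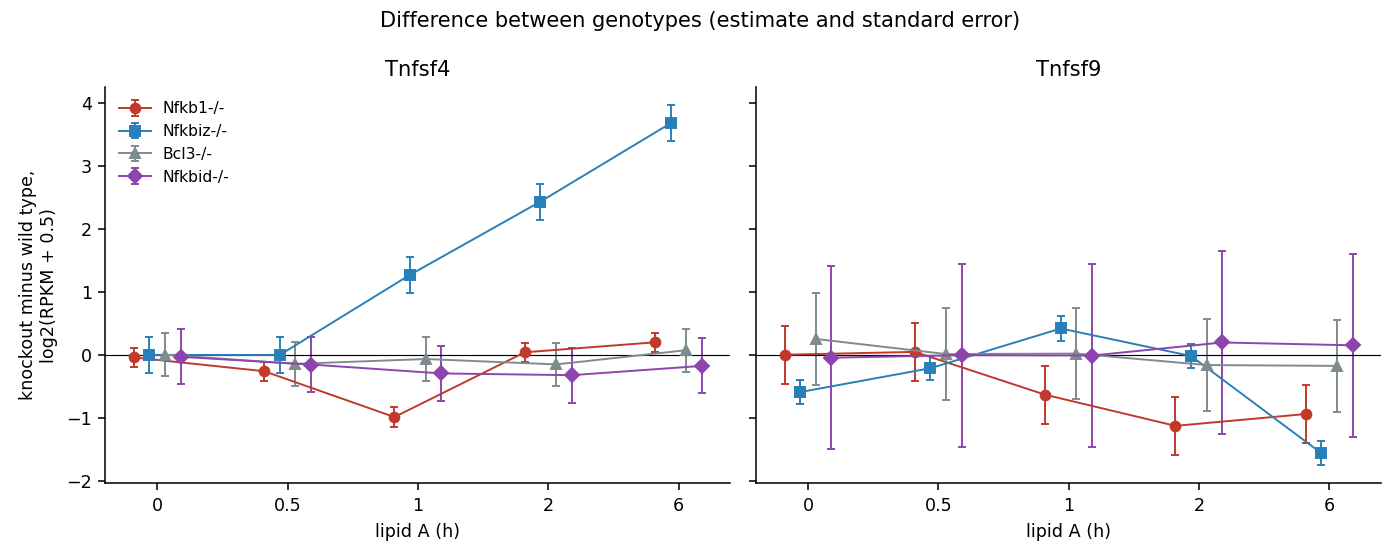
Difference between knockout and wild type on the log2(RPKM + 0.5) scale against hours of lipid A, for Tnfsf4 and Tnfsf9. Points are limma estimates and bars standard errors, 1 colour and symbol per knockout. The Nfkbiz points and bars are a description and not a test. Those of Tnfsf4 in the Nfkb1 series come from the fit without a filter on low values. Tnfsf4 lay at 3.68 at 6 h in the Nfkbiz series, which chose the genes, and at -0.99 at 1 h in the Nfkb1 series, while the Bcl3 and Nfkbid estimates lay within 1 standard error of 0.

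Neither ligand was called in Bcl3-/- or Nfkbid-/- macrophages at any time, and 0.0% of all genes were called in either series by limma (lower or higher, any stimulated time); at an unadjusted p under 0.05 there were 165 and 4 genes, neither ligand among them. Without Bcl3-/- replicate 2, 515 genes were called lower and 39 higher in the Bcl3 series, with the lone knockout library assumed to vary like the wild type. At 1 h Tnfsf4 had 2.27 and 0.878 RPKM in Bcl3-/- and 2.43 and 0.931 RPKM in wild type, a difference of -0.07 ± 0.34 on the log2(RPKM + 0.5) scale. At 0.5 h Tnfsf9 had 50.4 and 159 RPKM in Bcl3-/- and 70.0 and 113 RPKM in wild type, and at 6 h 6.59 and 11.6 RPKM in Bcl3-/- and 7.57 and 13.1 RPKM in wild type. The spread between replicates was wider than the gap between genotypes in each case. The same replicate number was the higher in both genotypes each time, so part of that spread may be common to both. The only values of a ligand that did not overlap in the Bcl3 series were those of Tnfsf4 at 6 h, 0.0493 and 0.0918 RPKM in Bcl3-/- and 0.0380 and 0.0471 RPKM in wild type, as for 6.27% of genes in that direction.

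In the Nfkbid series Tnfsf4 had 0.335, 0.419 and 1.31 RPKM in Nfkbid-/- at 1 h and 0.479, 0.313 and 2.73 RPKM in wild type. At 2 h it had 0.414, 0.267 and 0.975 RPKM in Nfkbid-/- and 1.14, 0.228 and 1.20 RPKM in wild type. Both genotypes overlapped. Tnfsf9 had 781, 86.1 and 147 RPKM in Nfkbid-/- at 0.5 h and 677, 98.5 and 151 RPKM in wild type, and at 6 h 67.6, 13.4 and 8.96 RPKM in Nfkbid-/- and 51.0, 10.2 and 11.4 RPKM in wild type; the first value of each set, replicate 1, was the high one in both genotypes.

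The Tnfsf9 differences in the Nfkbid series ran from -0.05 to 0.19 on the log2(RPKM + 0.5) scale over the 5 times, and those of Tnfsf4 from -0.33 to -0.03. The standard error was 1.45 for Tnfsf9 and 0.44 for Tnfsf4. It was 0.58 and 0.34 with the replicate number as a block, 0.22 and 0.19 with that block at each time, and 0.67 and 0.57 without replicate 1 of both genotypes, when the Tnfsf9 differences ran from -0.11 to 0.24; limma called none of these. Whether the Nfkb1 effect differs from the others was tested directly. For Tnfsf4 at 1 h the Nfkb1 effect minus the Bcl3 effect was -0.92 ± 0.51 and minus the Nfkbid effect -0.69 ± 0.46, and neither was called (limma adjusted p = 1.00 for both; 0.0166% of genes were called lower in each). For Tnfsf9 at 2 h the differences were -0.97 ± 1.61 and -1.33 ± 1.44, also not called (0.0% and 0.0332% of genes were). The standard errors of these differences draw on the spread of all 3 series, Nfkbid replicate 1 included. Fitted in its own series, the Tnfsf9 standard error was 0.46 for Nfkb1 and 0.73 for Bcl3. Over 5 other settings, the fit without that replicate among them, the Tnfsf9 differences ran from -1.01 to -0.90 and from -1.38 to -1.03. None of these was called.

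In J2 cells, where polyA RNA was measured, Tnfsf4 at 2 h of lipid A stood at 0.455 and 0.0452 RPKM without both Nfkb1 and Nfkb2 (21 and 2 reads), at 1.92 RPKM without Nfkb1 alone (118 reads) and at 2.89 RPKM in wild type (112 reads). Nfkb2 encodes the NF-kB subunit most closely related to that of Nfkb1. Both double-knockout libraries lay under the single-knockout and wild-type libraries, as for 16.8% of genes tested. Tnfsf4 reached 1 RPKM in J2 cells only in the Nfkb1-/- and wild-type libraries at 2 h. It thus passed the filter on low values, and entered the J2 fit, through the groups in which it was high. At 0 h it had 0.0136 and 0.0147 RPKM in Nfkb1-/- Nfkb2-/-, 0.177 RPKM in Nfkb1-/- and 0.0162 RPKM in wild type, where the double-knockout and wild-type values were each worth 1 read. The double knockout minus wild type at 2 h was -2.23 ± 0.47 on the log2(RPKM + 0.5) scale and was not called (limma adjusted p = 0.558, with the single wild-type library assumed to vary like the double knockout), and 0.0% of genes were called in either direction.

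Tnfsf9 in J2 cells had 388 and 115 RPKM at 2 h in Nfkb1-/- Nfkb2-/-, 67.1 RPKM in Nfkb1-/- and 73.0 RPKM in wild type. At 0 h it had 14.0 and 11.9 RPKM in Nfkb1-/- Nfkb2-/-, 6.20 RPKM in Nfkb1-/- and 16.8 RPKM in wild type. At 2 h both double-knockout libraries lay above the single-knockout and wild-type libraries for Tnfsf9, as for 14.4% of genes. The Tnfsf9 difference from wild type at 2 h, 1.53 ± 0.77, was not called (limma adjusted p = 1.00), and it was 2.40 or 0.65 when 1 of the double-knockout replicates was left out. The change within the double knockout, 2 h against 0 h, was 3.98 ± 0.63 for Tnfsf9 (limma adjusted p = 0.144; 0.233% of genes were called higher) and 0.49 ± 0.38 for Tnfsf4 (adjusted p = 0.696), which was 0.083 or 0.89 when 1 of the double-knockout replicates was left out.

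The ERK inhibitor series asked about signalling through the ERK kinase pathway in the first hour. With 1 library per point there is no replicate check, and intervals are exact 95% intervals on the read counts, which cover counting error only. Tnfsf4 had 0.00133, 0.00713, 0.0135 and 0.0462 RPKM with the inhibitor at 0, 15, 30 and 60 min of lipid A (1, 4, 7 and 27 reads), and 0.00366, 0.00202, 0.0661 and 0.573 RPKM with DMSO (2, 1, 33 and 348 reads). The inhibitor library was the lower at 30 and 60 min. At 60 min the ratio of inhibitor to DMSO was 0.0807 (0.0524 to 0.119), and at 30 min 0.204 (0.0761 to 0.468). On the log2(RPKM + 0.5) scale the 60 min ratio was -0.97, and of the 2176 genes with 1 RPKM in either library, which Tnfsf4 did not reach, 5.24% were at least 2-fold lower.

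Tnfsf9 behaved otherwise with the ERK inhibitor. It had 0.115, 22.5, 55.3 and 17.7 RPKM with the inhibitor at 0, 15, 30 and 60 min, and 0.281, 11.9, 35.1 and 27.8 RPKM with DMSO. The inhibitor library was the higher at 15 min, by 1.89-fold (1.72 to 2.09), and at 30 min, by 1.58-fold (1.49 to 1.67), and the lower at 60 min, with a ratio of 0.637 (0.590 to 0.687). No difference at 15, 30 or 60 min reached 2-fold, a size that 1.04% of genes passed upward at 15 min and 1.92% at 30 min. Before lipid A, at 0 min, the ratio of inhibitor to DMSO was 0.409 (0.159 to 0.982) on 9 and 16 reads, with both libraries under 1 RPKM. Tnfsf9 was already 42.2-fold over 0 min (25.8 to 74.4) at 15 min with DMSO, when 6.79% of genes were at least 2-fold higher and Tnfsf4 still had 1 read. With the inhibitor Tnfsf9 was 196-fold over 0 min (103 to 429) at 15 min, when 5.34% of genes were at least 2-fold higher. In both arms Tnfsf9 was highest at 30 min and Tnfsf4 at 60 min, the same order as in the lipid A courses of the knockout series.

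**Figure D3:**
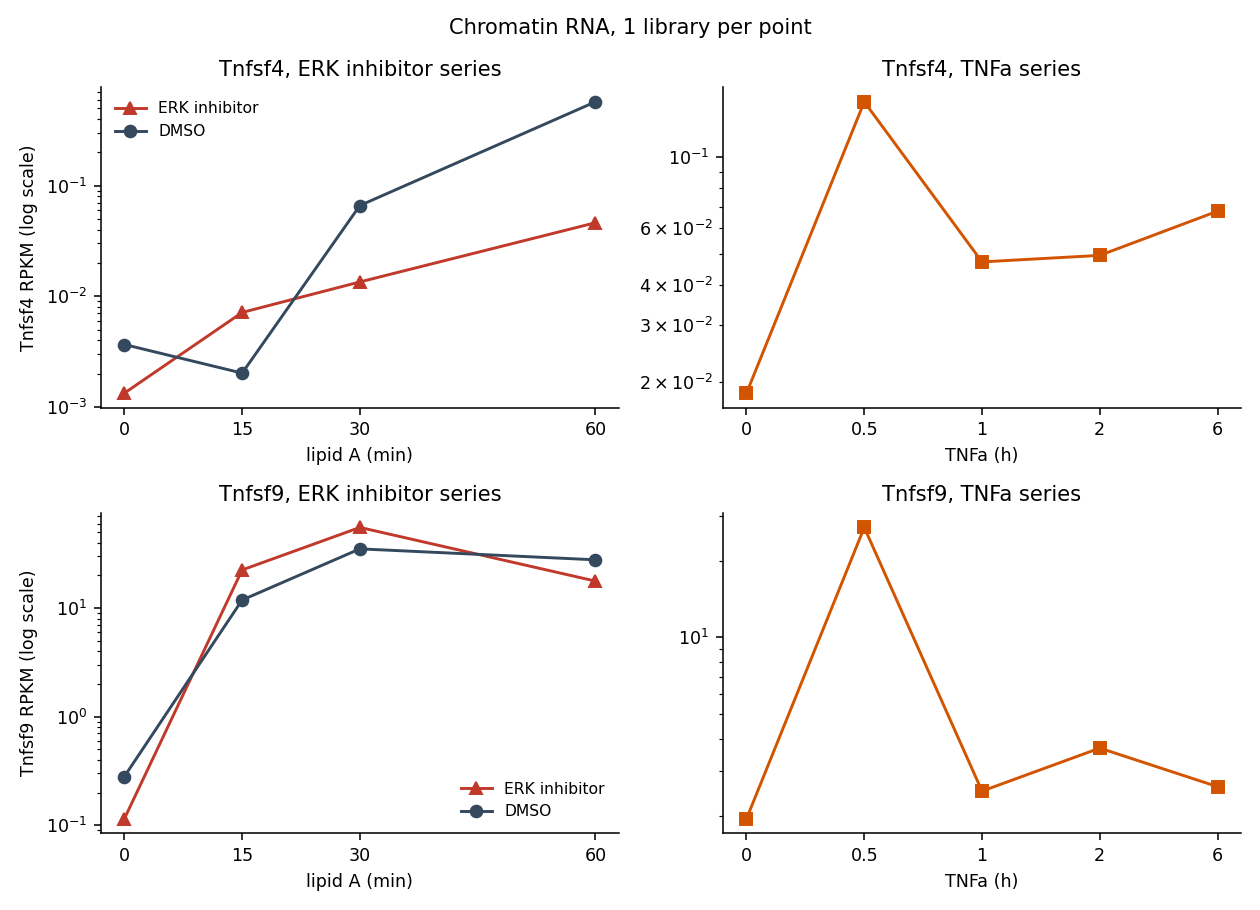
RPKM in chromatin RNA (log axes) against minutes of lipid A with ERK inhibitor (triangles) or DMSO (circles), and against hours of TNFa (squares), 1 library per point. Tnfsf4 ended at 0.0462 RPKM with the inhibitor and 0.573 RPKM with DMSO at 60 min, and after TNFa both genes were highest at 0.5 h.

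Both ligands had a brief chromatin RNA peak after TNFa. In chromatin RNA at 0, 0.5, 1, 2 and 6 h of TNFa, Tnfsf9 had 1.95, 27.0, 2.50, 3.69 and 2.60 RPKM, and Tnfsf4 had 0.0185, 0.148, 0.0472, 0.0494 and 0.0678 RPKM (8, 79, 23, 13 and 31 reads). Both were highest at 0.5 h and much lower at 1 h, without a full return to the 0 h level at every time. Against 0 h, Tnfsf4 was 2.56-fold higher at 1 h (1.10 to 6.61), 2.68-fold at 2 h (1.03 to 7.45) and 3.67-fold at 6 h (1.65 to 9.25). The Tnfsf9 ratios were 1.28 (0.970 to 1.70), 1.89 (1.41 to 2.55) and 1.34 (1.01 to 1.78) at these times. Tnfsf9 was 13.8-fold higher at 0.5 h than at 0 h (11.2 to 17.4), a size of change (2-fold or more) that 8.63% of genes with 1 RPKM showed, and Tnfsf4 was 8.02-fold higher (3.88 to 19.2). At 1 h Tnfsf4 had fewer reads than at 0.5 h of TNFa, whereas the wild-type lipid A courses peaked at 1 h or later; the stimuli were sampled in different series and were not compared with a test.

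PolyA RNA allowed the stimuli to be compared side by side. Tnfsf9 had 3.75 RPKM at 0 h. It had 459, 1432, 364 and 102 RPKM at 0.5, 1, 2 and 6 h of lipid A and 515, 177, 94.4 and 34.3 RPKM at the same times of TNFa. The stimuli were close at 0.5 h, with a lipid A to TNFa ratio of 0.893 (0.864 to 0.922). Lipid A was then the higher by 8.07-fold (7.78 to 8.37) at 1 h, 3.86-fold (3.65 to 4.09) at 2 h and 2.98-fold (2.70 to 3.30) at 6 h. At least 2-fold more with lipid A was found for 2.24% of genes at 1 h, 4.27% at 2 h and 7.37% at 6 h.

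Tnfsf4 polyA RNA separated the stimuli by time of appearance. It had 0.0548, 1.32, 4.63 and 2.48 RPKM at 0.5, 1, 2 and 6 h of lipid A (1, 19, 67 and 35 reads), and 0.136, 0.194, 0.206 and 1.58 RPKM at the same times of TNFa (3, 5, 5 and 36 reads). No read was found at 0 h; the value listed there is the one that the 9 libraries of this series give to genes without reads, and no fold change is drawn from it. Lipid A was the higher by 6.79-fold (2.45 to 23.3) at 1 h and 22.5-fold (9.17 to 71.5) at 2 h. At 6 h the ratio was 1.57 (0.956 to 2.57), an interval that includes 1.

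Under either stimulus Tnfsf4 was close with and without IkBz overexpression. With lipid A for 2 h, Tnfsf4 had 7.72 RPKM with IkBz overexpressed and 7.90 RPKM in control (ratio 0.977, 0.846 to 1.13), and with TNFa for 2 h 1.34 RPKM in either (ratio 1.01, 0.684 to 1.46). At 0 h it had 0.499 RPKM with IkBz overexpressed and 0.0795 RPKM in control, on 12 and 7 reads, a ratio of 6.27 (2.28 to 18.8). The unstimulated libraries were the only ones that differed beyond counting error. They stayed under 1 RPKM, and of the genes that reached it 2.57% were at least 2-fold higher at 0 h.

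Tnfsf9 was modestly higher with IkBz overexpressed under either stimulus. It had 223 RPKM with IkBz overexpressed and 154 RPKM in control at 2 h of lipid A (ratio 1.45, 1.40 to 1.50), and 173 RPKM and 139 RPKM at 2 h of TNFa (ratio 1.25, 1.20 to 1.29). At 0 h it had 9.68 RPKM with IkBz overexpressed and 11.2 RPKM in control (ratio 0.866, 0.731 to 1.02). None of these reached 2-fold, which 2.04% of genes passed upward with lipid A and 2.49% with TNFa. In the control cells lipid A exceeded TNFa at 2 h by 5.92-fold (4.66 to 7.56) for Tnfsf4 and by 1.11-fold (1.07 to 1.15) for Tnfsf9, and 4.83% of genes were at least 2-fold higher with lipid A.

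**Figure D4:**
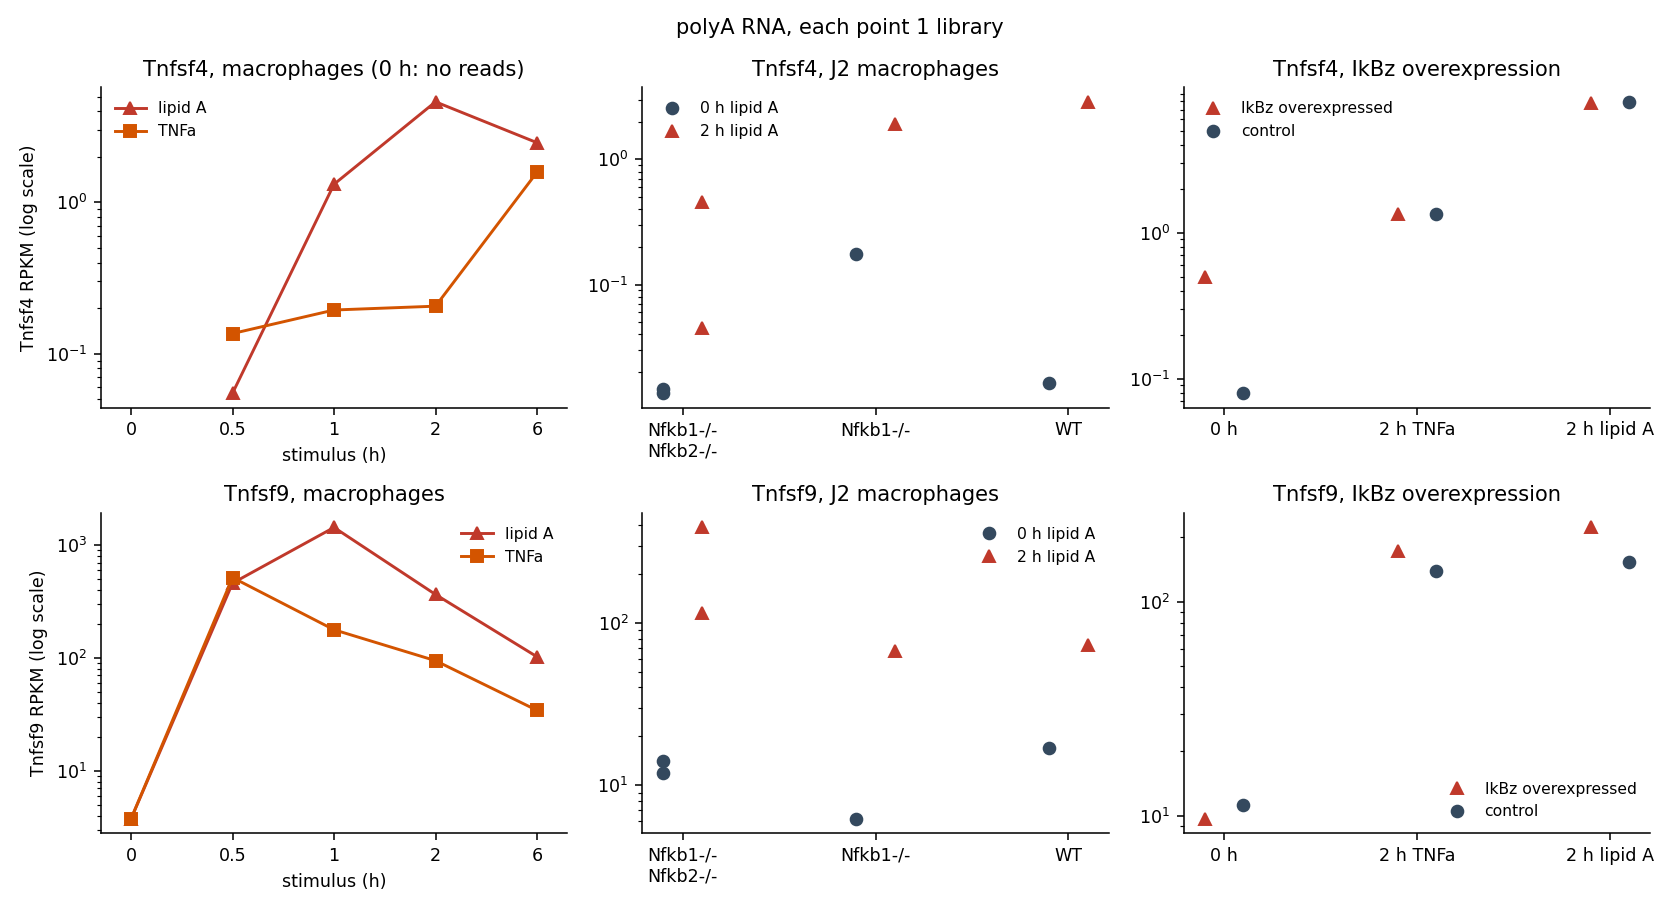
RPKM of Tnfsf4 (top) and Tnfsf9 (bottom) in polyA RNA on log axes, 1 library per point: wild-type macrophages by hours of lipid A or TNFa, J2 cells by genotype, and cells with IkBz overexpressed or control; Tnfsf4 had no read at 0 h in the first panel and is left out there. At 2 h of stimulus Tnfsf4 stood at 4.63 RPKM with lipid A and 0.206 RPKM with TNFa.

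The ligands kept different company among the other genes. By Pearson's r over the 40 group means, among 4077 genes passing the filter in all 4 series, the genes most like Tnfsf4 were Anxa4 (0.865), S100a11 (0.790), Akap2 (0.771), Acvr2a (0.761) and Cd86 (0.751). Anxa4 and S100a11 encode calcium-binding proteins, Acvr2a an activin receptor and Cd86 a costimulatory ligand of CD28. Those most like Tnfsf9 were Cxcl2 (0.971), Sdc4 (0.962), Cxcl1 (0.960), Srgn (0.960) and Ccl9 (0.953), of which Cxcl1, Cxcl2 and Ccl9 encode chemokines. The Tnfsf4 values include the Nfkbiz contrast that chose the gene, and all points share time courses, so these are descriptions.

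Of 18 listed TNF superfamily ligands 14 were in the table, the other 4 were not analysed here, and 7 passed the filter in the wild-type lipid A fit. All of these but Tnfsf9 and Tnfsf12 had wild-type medians under 1 RPKM at 0 h, so the filter favours ligands that are higher after stimulation and no count over them is drawn from that fit. At 2 h against 0 h, Tnfsf15, a ligand that costimulates T cells through DR3, rose by 3.74 on the log2(RPKM + 0.5) scale, Tnfsf10, the death ligand TRAIL, by 3.55 and Tnfsf8, the CD30 ligand, by 1.14, while Tnfsf12 (TWEAK) fell by 2.23, as 15.5% of genes were called lower at that time. At 0.5 h these 4 ligands and Tnfsf14 had differences of -1.58 to 0.69, against 5.83 for Tnfsf9. Over the 10 wild-type libraries of the 4 series, the median of Tnfsf9 at 0.5 h (111 RPKM) was the highest of the 14 ligands in the table at any of the 5 times, and the 1 h median of Tnfsf4 was 1.01 RPKM.

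**Figure D5:**
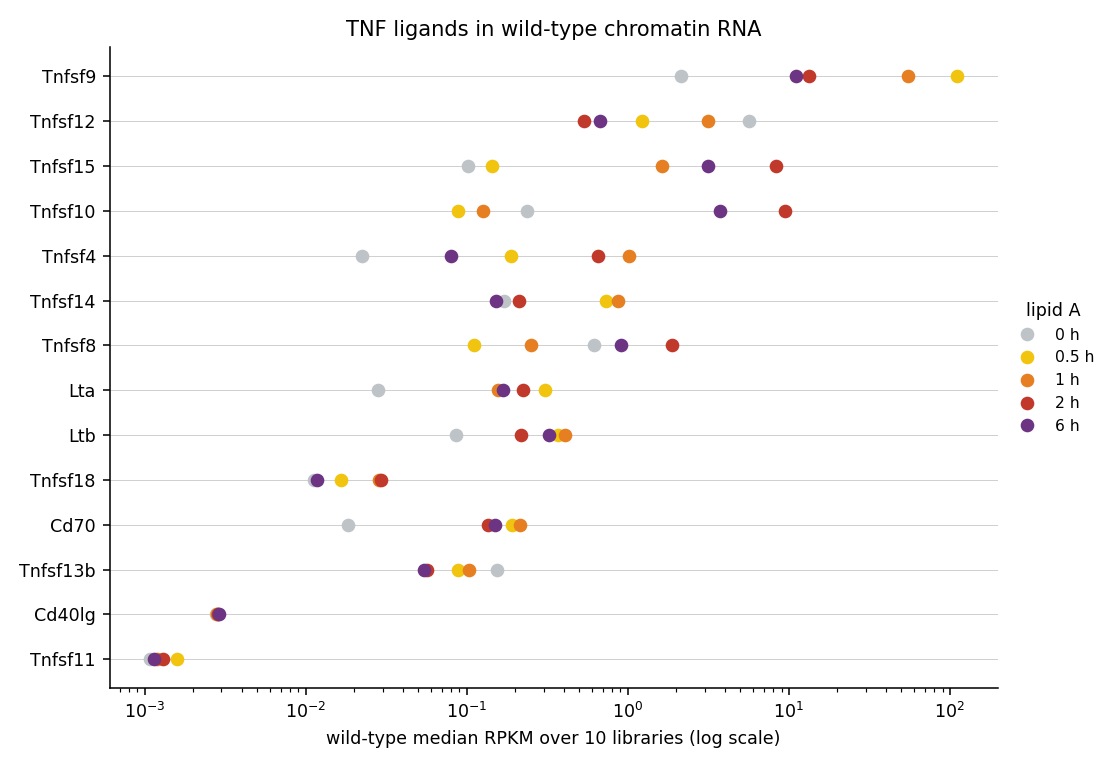
Median chromatin RNA level (RPKM, log axis) of the 14 listed TNF superfamily ligands in the table over the 10 wild-type libraries per time, against hours of lipid A. Tnfsf9 was highest at 0.5 h (111 RPKM), Tnfsf4 at 1 h (1.01 RPKM), and Tnfsf10 and Tnfsf15 at 2 h (9.53 and 8.34 RPKM).

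The other listed genes of the pathway were TNF receptors, costimulatory and adhesion molecules, and TRAF and NF-kB signalling genes. None of those tested was called by limma in the Nfkb1, Bcl3 or Nfkbid series. Of all genes, 0.906% were called lower and 0.133% higher in Nfkb1-/- (41 and 6 genes, or 92 and 30 with the replicate block). At an unadjusted limma p under 0.05 at some stimulated time there were 4 of 17, 0 of 18 and 0 of 19 of these listed genes. Of all genes tested, 403 of 4523, 165 of 4740 and 4 of 5367 passed that looser threshold in the same series. In the Nfkbiz series, where 4.26% of all genes were called lower and 2.01% higher, 2 of 5 tested TNF receptors were called lower: Tnfrsf1b, a receptor for TNF, at 2 h (-2.40) and 6 h (-2.83, limma adjusted p = 2.38e-06) and Tnfrsf11a, the receptor RANK, at 6 h (-1.60, adjusted p = 0.0223). Of 7 tested costimulatory and adhesion molecules 2 were called higher, Cd86 at 6 h (2.57, limma adjusted p = 0.000342) and Vcam1, an adhesion molecule, at 1, 2 and 6 h (1.33, 1.56 and 1.64). Cd86 averaged 24.7 ± 5.20 RPKM in Nfkbiz-/- at 6 h and 4.04 ± 2.40 RPKM in wild type (SD, n = 2 each). Of 6 tested signalling genes Nfkbia, the gene for the NF-kB inhibitor IkBa, was called lower at 2 and 6 h (-1.35 and -1.31). Tnfrsf4, which encodes the receptor of the Tnfsf4 protein, did not exceed 1.07 RPKM in any of the 100 libraries, and Tnfrsf9 was not analysed here.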

How the data were processed

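RPKM values per gene were used as deposited by the authors. Per the labels, chromatin-associated or polyA RNA was sequenced from stranded libraries, although the extraction text describes chromatin RNA for all; HISAT2, SAMtools and mm9 are named in the submitters' processing notes, with no versions. Values were analysed as log2(RPKM + 0.5) with limma 3.58.1 (R 4.3.3, trended variance) and Benjamini-Hochberg adjustment over all genes tested. In the knockout fits, a gene had to reach 1 RPKM in at least as many libraries as make up 1 group of the series. For the wild-type time course, the J2 cells and the differences between knockout effects, at least 2 libraries had to reach it. A call needed an adjusted p under 0.05 and a 2-fold change. Reads behind a value were recovered from its steps (94.6% to 98.7% of low chromatin values were whole within 0.02 reads), over the gene span for chromatin RNA and over 1609 (Tnfsf4) and 1230 (Tnfsf9) bases for polyA RNA. In the 9 libraries of the polyA time course, 20.3% to 21.6% of genes carry a fixed value for no reads, and such genes were left out of its shares. The knockout fits were run on simulated data with noise independent between libraries. That run cannot check them for the variation shared by same-numbered libraries, given below. Members and lists were chosen with earlier results of these data known; named genes are the ligands, called list genes, genes within 200 kb and the 5 most alike. Residuals of same-numbered libraries correlated in the Nfkb1 (0.61 to 0.92), Nfkbid (0.89 to 0.97), Bcl3 (0.27 to 0.76) and Nfkbiz series (0.45 to 0.73). Such libraries thus share variation, although the labels do not say that they were paired. The main fits leave this sharing out, and the replicate block takes it in as an alternative. The alternatives were other pseudocounts (0.1 and 1), filters (none and 3 RPKM), median centring, fits at each time, a replicate block and leaving out libraries.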

Additional observations from a re-analysis of the deposited data

Results flagged for a closer look

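Replicate 1 of the Nfkbid series stood far from the other wild-type libraries of its time. Its wild-type Tnfsf9 level was 677 RPKM at 0.5 h, 648 RPKM at 1 h, 121 RPKM at 2 h and 51.0 RPKM at 6 h, and its Tnfsf4 level was 0.475 RPKM at 6 h, each separated from the other 7 libraries by a gap above the critical value of Dixon's test. For this test 10 sets of 8 libraries were examined, and chance alone would mark about 1 in 20 sets. The same replicate had the low Malat1 levels given above, and the part of that difference in the ligand values was not tested.

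At 1 h of lipid A Tnfsf4 was higher in both Nfkbiz-/- libraries (3.25-fold over wild type by the means) and lower in all 3 Nfkb1-/- libraries (0.292 of wild type). The difference between these knockouts was not tested, because the Nfkbiz contrast chose the gene.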

How the results depend on the processing

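Of 737 recomputed values for 74 tested results on the ligands, 659 kept their direction and their side of the threshold, 15 gained a call, 7 lost one and 56 changed sign. No called value changed sign: the reported estimates behind the 56 were at most 0.25 in size, and limma called none (lowest adjusted p = 0.261). In the Nfkb1 series, Tnfsf4 at 1 h became called with 0.1 RPKM added (-1.52, limma adjusted p = 0.0372) and ran from -1.10 to -0.83 with 1 replicate left out, being called without knockout replicate 2 (-1.08), wild-type replicate 2 (-1.10) or wild-type replicate 3 (-1.05). Of the fits with the replicate block, Tnfsf9 at 2 h was called with the block at each time (-1.13, adjusted p = 0.0114; with 0.1 RPKM added -1.19, adjusted p = 0.0132), as was Tnfsf9 at 6 h with both changes (-1.02, adjusted p = 0.0252) and Tnfsf4 at 1 h with both (-1.52, adjusted p = 0.00204 and 0.0049). The block with 0.1 RPKM was chosen after seeing the data. In wild type the Tnfsf9 step from 0.5 to 1 h was called with the block (-1.03, adjusted p = 0.000674) or without Nfkbid replicate 1 (-1.17). No other call on the ligands changed with the block.

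For wild-type Tnfsf4, 0.5 against 0 h was called with 0.1 RPKM added (1.32) or libraries centred on their median (1.05), and 6 against 2 h with 0.1 RPKM added (-1.72). Its 2 h change lost its call with 1 RPKM added (0.64), without the Nfkbid series (0.90) or without Nfkbid replicate 1 (0.94), and its step from 0.5 to 1 h with 1 RPKM added (0.79) or without the Nfkb1 series (1.04). The Tnfsf9 step from 1 to 2 h lost its call without the Nfkb1 series (-1.84, adjusted p = 0.229) or the Bcl3 series (-2.01, adjusted p = 0.0656). The J2 change of Tnfsf9 in the double knockout was called with no filter (3.98, adjusted p = 0.027). In the Nfkbiz series 1 of 6 tested signalling genes was called lower as reported. There the block gave 2 signalling genes called lower, and centring gave 1 called higher. The reported fit called 4.26% of all genes lower and 2.01% higher in that series. Ligands are left out of these counts, since that contrast chose the genes. The cause of these shifts was not tested beyond the settings named. Counts over all genes moved widely: 41 genes lower in Nfkb1-/- (4 to 207 over the settings) and 6 higher (0 to 125), 208 lower in Nfkbiz-/- (71 to 591) and 98 higher (50 to 178), and 0 in Bcl3-/- (515 lower and 39 higher without knockout replicate 2, at most 1 and 4 otherwise). Depth limits Tnfsf4 most at 0 h, where it had 4 to 33 reads in the libraries of the knockout series, against 15 to 458 at 0.5 h.

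The changed signs were as follows, on the log2(RPKM + 0.5) scale. Median centring gave 0.12 for Tnfsf9 in Nfkb1-/- at 0 h; in Bcl3-/- -0.039 for Tnfsf9 at 1 h, 0.0032 at 2 h and 0.013 for Tnfsf4 at 2 h; and in Nfkbid-/- 0.037 for Tnfsf4 and 0.023 for Tnfsf9 at 0 h, with 0.038 at 0.5 h and 0.039 at 1 h for Tnfsf9. For Tnfsf4 at 0 h it gave 0.11 for the Nfkb1 minus the Bcl3 effect and 0.055 for the Nfkb1 minus the Nfkbid effect. With 0.1 RPKM added, the last was 0.0019 and Tnfsf9 in Nfkb1-/- at 0 h 0.028, also with the replicate block. Without Nfkbid replicate 1 of both genotypes, with or without the replicate block, Tnfsf9 was 0.24 at 0 h and -0.11 at 2 h in Nfkbid-/-, and the Nfkb1 minus the Nfkbid effect was -0.24 at 0 h.

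With 1 replicate of 1 genotype left out, Tnfsf9 in Nfkb1-/- ran from -0.48 to 0.36 at 0 h and from -0.077 to 0.17 at 0.5 h, and Tnfsf4 from -0.093 to 0.037 at 0 h and from -0.088 to 0.16 at 2 h. In Bcl3-/-, Tnfsf4 ran from -0.0090 to 0.019 at 0 h and from -0.59 to 0.43 at 1 h, and Tnfsf9 from -0.82 to 1.32, -0.81 to 0.83, -0.66 to 0.69, -0.76 to 0.43 and -0.56 to 0.21 at 0, 0.5, 1, 2 and 6 h. In Nfkbid-/-, Tnfsf4 ran from -0.43 to 0.031 at 0.5 h and from -0.34 to 0.049 at 6 h, and Tnfsf9 from -0.82 to 0.55, -0.94 to 0.82, -1.42 to 1.33, -1.22 to 1.31 and -0.71 to 0.88 at the 5 times.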

Other observations

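Within 200 kb of Tnfsf4 the table holds 1 other gene, Tnfsf18, the gene for GITR ligand, 76.5 kb away. Tnfsf18 had 0.266 and 0.725 RPKM in Nfkbiz-/- macrophages at 6 h and 0.0143 and 0.0299 RPKM in wild type, and 0.0751 and 0.180 RPKM in Nfkbiz-/- at 2 h against 0.0521 and 0.0734 RPKM in wild type. Both Nfkbiz-/- libraries lay above both wild-type libraries at 2 and 6 h, as for 16.9% and 14.8% of the genes tested in that series. At 2 h the lower Nfkbiz-/- value (0.0751 RPKM) hardly exceeded the higher wild-type value (0.0734 RPKM), so that separation carries little weight. The genotypes overlapped at 0, 0.5 and 1 h. Tnfsf18 stayed under 1 RPKM in every library of the knockout series and was not tested.

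Around Tnfsf9 the table holds 11 other genes, among them the overlapping Gm11110, the TNF superfamily ligands Cd70 (38.2 kb) and Tnfsf14 (81.7 kb) and the complement gene C3 (96.2 kb). Only 4 of them passed the filter in the Nfkb1 series (Gm11110, Gtf2f1, Khsrp and C3). Of these C3 was called, lower in Nfkb1-/- at 1 h (-2.05 on the log2(RPKM + 0.5) scale, limma adjusted p = 0.00212) and at 2 h (-2.99, adjusted p = 1.92e-05), beside 0.597% and 0.376% of all genes called lower there, and the other 3 were not called at any time.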
